A study of Mus musculus with 6 samples.

Results

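Peaks at 9 genes that encode lipid-sensing nuclear receptors were examined in 6 chromatin immunoprecipitation sequencing (ChIP-seq) peak lists from mouse bone marrow-derived macrophages (BMDMs). The genes were Pparg, Ppard, Rxra, Rxrb, Nr1h3, Nr1h2, Rara, Vdr and Nr3c1. A peak was a member when the deposited annotation gave 1 of these genes as the gene with the nearest transcription start site (TSS). This held for 203 of the 134964 peaks. Overlapping peaks of all 6 lists were merged into regions, of which 92 of 60856 belonged to the 9 genes. At least 1 peak was assigned to 8 of the 9 genes, and Rxrb had none.

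The BMDMs came from wild-type mice of 8 to 12 weeks, which the study's methods place on a C57BL/6 background. Macrophages were grown from marrow over 6 days with L929 supernatant as the source of macrophage colony-stimulating factor. The control group, labelled as vehicle, then received no IL-4, while the other group was exposed for 1 h to 20 ng/ml of IL-4. After double cross-linking (DSG, formaldehyde), DNA bound by C/EBPα, by IRF8 or by JUNB was recovered with the respective antibody. Each antibody had 1 control and 1 IL-4 sample. No value has a replicate, and no test of a difference between the conditions was possible.

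Nuclear receptors are transcription factors that are switched by small lipophilic ligands. The PPARs respond to fatty acids, the LXRs to oxysterols, the retinoic acid receptor to retinoic acid, the vitamin D receptor to calcitriol and the glucocorticoid receptor to glucocorticoids, and most of them, although not the glucocorticoid receptor, bind DNA as a pair with an RXR. In macrophages they govern lipid uptake, cholesterol efflux and inflammatory gene expression, and PPARγ is a known partner of the IL-4 and STAT6 pathway. C/EBPα and IRF8 are myeloid factors that occupy macrophage enhancers, the latter often beside PU.1 or an AP-1 protein such as JUNB, which binds the AP-1 element.

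The sequence under a selection of the member regions is shown first, as 200 bp of the plus strand of mm10 around the peak centre, from the RefSeq copy of that assembly. Capitals mark matches on either strand to AP-1 (TGACTCA or TGAGTCA), C/EBP (TTGCNNAA), PU.1-IRF (GGAA and GAAA with 2 bases between them) or the PU.1 core (GAGGAAG, which can overlap PU.1-IRF in GGAA). The windows are the Pparg region with all 3 factors in intron 1, the strongest JUNB region outside Pparg, the strongest IRF8 regions of Rara, Ppard and Vdr, and the region upstream of the nearest Nr1h3 start. Each of these windows holds a match. Windows with no match are not shown, among them those of the strongest C/EBPα regions of Ppard and Rxra. The same holds for the strongest IRF8 region of Rxra and for the Nr1h3 and Nr1h2 promoters. The printed windows therefore give no rate of matches.

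Pparg, intron 1, chr6:115375386-115375585: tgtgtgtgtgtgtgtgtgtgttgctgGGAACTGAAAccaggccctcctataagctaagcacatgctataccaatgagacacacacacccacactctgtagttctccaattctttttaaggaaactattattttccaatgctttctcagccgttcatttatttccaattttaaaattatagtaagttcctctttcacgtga

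Rara, 4.2 kb upstream, chr11:98933438-98933637: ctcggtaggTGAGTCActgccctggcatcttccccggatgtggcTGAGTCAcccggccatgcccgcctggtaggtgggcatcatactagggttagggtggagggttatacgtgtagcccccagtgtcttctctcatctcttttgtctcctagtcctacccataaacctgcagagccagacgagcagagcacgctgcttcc

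Rara, intron 1, chr11:98941897-98942096: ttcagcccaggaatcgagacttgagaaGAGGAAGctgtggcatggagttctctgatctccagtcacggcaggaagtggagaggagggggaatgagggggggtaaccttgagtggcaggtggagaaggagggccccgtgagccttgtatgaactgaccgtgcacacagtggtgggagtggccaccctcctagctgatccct

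Ppard, intron 2, chr17:28247681-28247880: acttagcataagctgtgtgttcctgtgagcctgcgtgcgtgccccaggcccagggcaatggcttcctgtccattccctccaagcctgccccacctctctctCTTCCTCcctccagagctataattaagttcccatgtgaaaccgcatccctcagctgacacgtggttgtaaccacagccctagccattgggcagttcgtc

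Vdr, 19.7 kb upstream, chr15:97927927-97928126: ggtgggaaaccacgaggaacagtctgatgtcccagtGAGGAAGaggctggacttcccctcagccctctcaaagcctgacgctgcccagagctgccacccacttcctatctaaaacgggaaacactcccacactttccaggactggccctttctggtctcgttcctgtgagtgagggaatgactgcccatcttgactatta

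Nr1h3, 1.8 kb upstream, chr2:91196817-91197016: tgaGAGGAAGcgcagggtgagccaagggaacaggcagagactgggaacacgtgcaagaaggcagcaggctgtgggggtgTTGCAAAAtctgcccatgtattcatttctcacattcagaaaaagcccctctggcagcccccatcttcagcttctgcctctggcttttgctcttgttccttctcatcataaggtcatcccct

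In the next window, capitals mark coding exon 5 of Pparg in place of motifs. It lies under the JUNB peak with the highest score among the 9 genes.

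Pparg, exon 5, chr6:115450928-115451127: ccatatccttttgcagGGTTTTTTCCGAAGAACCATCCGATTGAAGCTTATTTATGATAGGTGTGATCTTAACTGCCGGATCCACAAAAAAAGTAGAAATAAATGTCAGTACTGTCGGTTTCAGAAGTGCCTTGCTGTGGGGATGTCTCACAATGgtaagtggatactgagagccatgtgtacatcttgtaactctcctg

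The upstream Rara window, under JUNB peaks in both conditions, held 2 AP-1 matches. The Pparg intron 1 window held 1 PU.1-IRF match, and the other windows marked for motifs held a PU.1 core, beside which the Nr1h3 window held a C/EBP match. The PU.1 core was added to the search after sequences had been seen. It was found in 22.4% of the 67 member regions with IRF8 and in 25.6% of all regions with IRF8. The exon 5 window held no AP-1 match. It held 1 STAT6-type match, which is TTC and GAA separated by 3 or 4 bases. A match describes the letters of the window and is not evidence of binding by the factor.

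At the 9 genes C/EBPα had 44 control peaks and 41 IL-4 peaks, of 24486 and 24612 in the whole lists. For IRF8 the numbers were 54 and 53, of 37525 and 42076. JUNB had 7 and 4, of 3940 and 2325. Read depth is unknown, and the peak score, taken as a −log10 q-value or p-value, increases with depth, so a difference in depth between 2 samples cannot be told apart from an effect of IL-4. As a check of the label, all 8 macrophage marker genes searched (Csf1r among them) had C/EBPα and IRF8 peaks. Markers of other marrow cells had 10 regions at 6 of 9 genes and no JUNB peak.

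The peaks were unevenly spread over the receptor genes. Nr3c1, the glucocorticoid receptor gene, had 33 regions, and Pparg had 27. Rxra had 11, Rara 9, Vdr 5, Ppard 4, Nr1h3 2 and Nr1h2 1. Over the 14930 genes with at least 1 region the median was 2. Only 41 of them had more regions than Nr3c1, and 89 had more than Pparg. The length of a gene and the distance to its neighbours differ among the 9 and enter such counts. Their part in the counts was not tested.

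**Figure D1:**
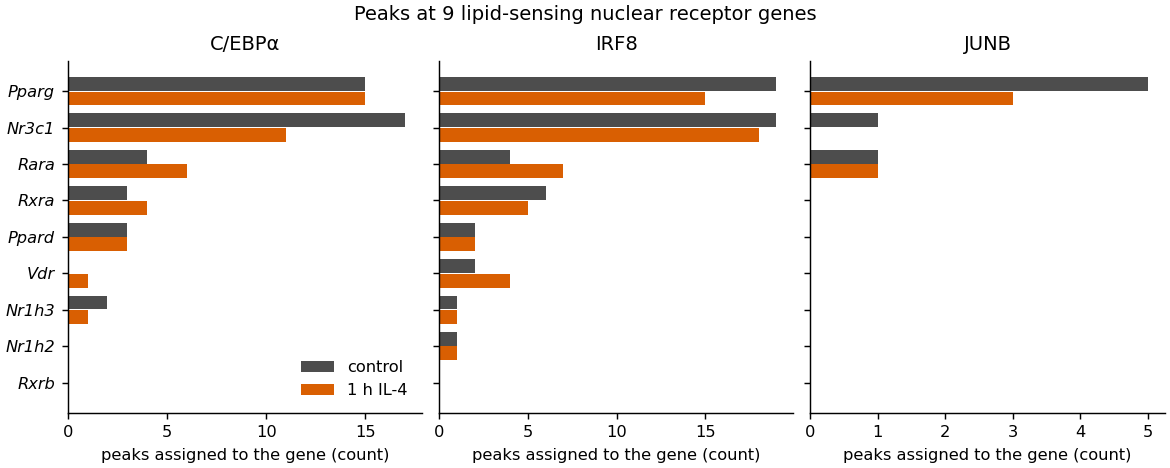
Number of peaks assigned to each of the 9 genes (horizontal axis, count) in each list, with control in grey and 1 h IL-4 in orange, and a separate axis range for JUNB. Pparg and Nr3c1 carry most peaks of C/EBPα and IRF8, JUNB peaks occur at Pparg, Rara and Nr3c1, and Rxrb has none.

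Most member peaks lay away from promoters. Within 1 kb of a TSS were 2 of 44 C/EBPα peaks in control (4.55%, against 9.14% of the list) and 2 of 41 after IL-4 (4.88%, against 9.87%). For IRF8 the counts were 4 of 54 (7.41%, against 10.2%) and 2 of 53 (3.77%, against 12.8%). No JUNB peak of the 9 genes lay that close. Intronic peaks made up 61.4% of the C/EBPα control peaks at the members and 46.2% of all C/EBPα control peaks. Among the control peaks of IRF8 these shares were 53.7% and 45.6%. For JUNB, 2 of 7 control peaks (28.6%) at the members were intronic, against 44.3% of the list. Of these 7 peaks, 3 lay on Pparg exons, and without them 2 of 4 were intronic.

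The first comparison asked how many peaks at these genes were present in both conditions. Most C/EBPα and IRF8 peaks were. For C/EBPα, 13 of 44 control peaks had no overlapping IL-4 peak (29.5%, exact 95% interval 16.8 to 45.2%), against 21.4% of all control peaks. Of the 41 IL-4 peaks, 10 had no control peak (24.4%, 12.4 to 40.3%), against 22.0% of the list. For IRF8, 14 of 54 peaks were control-only (25.9%, 15.0 to 39.7%), against 21.4% of the list, and 14 of 53 were IL-4-only (26.4%, 15.3 to 40.3%), against 30.4%. For both factors, each share over the whole list was inside the interval of the members. The intervals cover counting error only.

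JUNB had few peaks at these genes, and its shares have wide intervals. Of 7 JUNB control peaks 4 had no overlapping IL-4 peak (57.1%, 18.4 to 90.1%), against 64.2% of all JUNB control peaks. Of 4 JUNB IL-4 peaks 1 had no control peak (25.0%, 0.631 to 80.6%), against 39.2% of the list. That peak lay in intron 1 of Pparg, in the same merged region as a JUNB control peak that it did not touch. Without the peaks on Pparg exons, 3 of 4 JUNB control peaks were control-only and 1 of 2 IL-4 peaks was IL-4-only.

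Peaks found in 1 condition only scored low. The 13 C/EBPα regions with a control peak only had a median score of 6.71 (2.35 to 12.43), and the 10 with an IL-4 peak only had a median of 5.26 (2.96 to 14.93). The corresponding IRF8 medians were 6.72 (3.57 to 11.75) and 4.48 (2.60 to 10.58), each over 14 regions. In regions with peaks in both conditions the control medians were 13.0 for C/EBPα and 12.2 for IRF8. Such regions with peaks in both conditions reached 86.92 for C/EBPα. The same medians over all regions were not computed, so these values do not set the members apart.

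At peaks found in both conditions the scores were similar overall. Among 31 C/EBPα pairs at the members, 4 were at least 1.5-fold higher after IL-4 (17.7% of all pairs were) and 7 at least 1.5-fold lower (17.8% of all pairs). The median log2 ratio of IL-4 over control was 0.03. Among 39 IRF8 pairs, 12 were at least 1.5-fold higher (23.6% of all pairs) and 4 lower (17.5%), with a median log2 ratio of 0.12 against 0.08 over the list. The 12 higher IRF8 pairs were spread over Pparg with 5, Rxra and Rara with 2 each, and Ppard, Vdr and Nr3c1 with 1 each. Without the pairs on Pparg exons, 11 of 36 IRF8 pairs were at least 1.5-fold higher and 2 at least 1.5-fold lower.

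JUNB had only 3 pairs, at Pparg exons 3 and 5 and upstream of Rara. None was 1.5-fold higher after IL-4 (9.60% of all pairs were) and 2 were lower (47.9% of all pairs). The median log2 ratio was −2.17 at the members and −0.54 over the list. Without the Pparg exon peaks only the Rara pair was left, at a log2 ratio of 0.43.

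**Figure D2:**
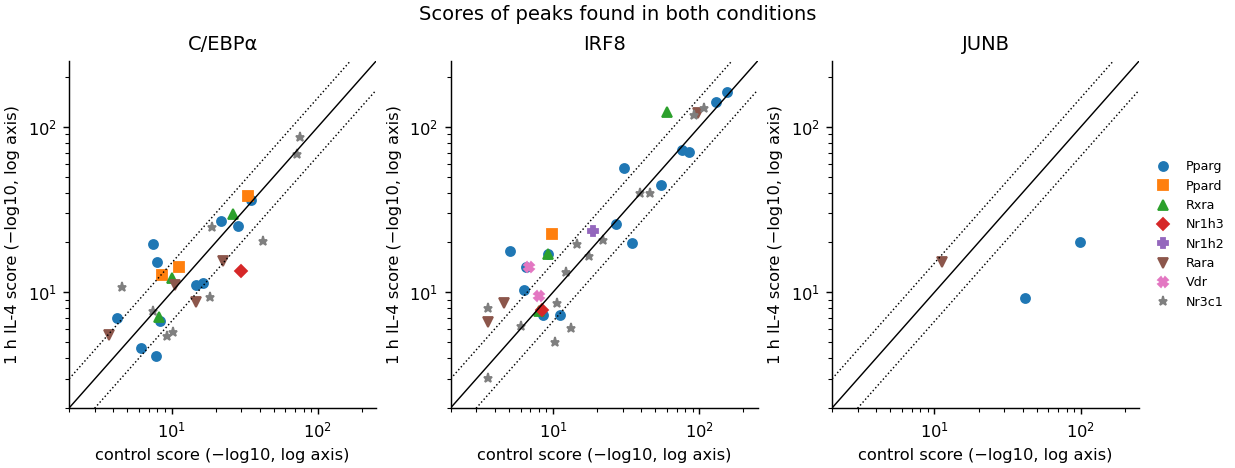
Peak score in control (horizontal) and after 1 h IL-4 (vertical), both −log10 on log axes, for each pair of overlapping peaks at the members (31 for C/EBPα, 39 for IRF8, 3 for JUNB), with a symbol for each gene. The solid line marks equal scores and the dotted lines a 1.5-fold difference. Most points lie between the dotted lines, and the 2 JUNB peaks on Pparg exons lie far below them.

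The next comparison asked which factors shared sites at the receptor genes. C/EBPα overlapped IRF8 in 22 of 44 peaks in control (50%, 34.6 to 65.4%), against 58.1% of all C/EBPα peaks, and in 21 of 41 after IL-4 (51.2%, 35.1 to 67.1%), against 60.6%. IRF8 overlapped C/EBPα in 21 of 54 peaks (38.9%, against 37.9% of the list) in control and in 20 of 53 (37.7%, against 35.3%) after IL-4. Each of these list shares lay inside the members' interval. Without the peaks on Pparg exons, IRF8 overlapped C/EBPα in 21 of 51 control peaks and in 19 of 49 IL-4 peaks. JUNB overlapped C/EBPα in 1 of 7 peaks (14.3%, 0.361 to 57.9%) in control, against 72.3% of its list, a share above that interval. After IL-4 the overlap was 1 of 4 (25.0%, 0.631 to 80.6%), against 73.4%. With the Pparg exon peaks left out, the counts were 1 of 4 (25.0%, 0.631 to 80.6%) and 1 of 2, and both list shares were inside the intervals. JUNB overlapped IRF8 in 5 of 7 peaks in control, against 80.8% of its list, and in 4 of 4 after IL-4, against 82.6%. Without the Pparg exon peaks these counts were 2 of 4 and 2 of 2.

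PPARγ, encoded by Pparg, is the receptor that drives fat cell formation and, in macrophages, genes of fatty acid uptake. The gene spans chr6:115360951-115490399 on the plus strand and has separate start sites for its Pparg1 and Pparg2 transcripts. It had 15 C/EBPα peaks in each condition, 19 IRF8 peaks in control and 15 after IL-4, and 5 and 3 JUNB peaks. Of the 27 regions, 16 lay in the gene and 11 upstream of it. None was within 1 kb of an annotated start. The nearest was a control-only IRF8 peak of score 3.57 at 1037 bp upstream.

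The region 14.3 kb into intron 1 (chr6:115375179-115375830) was the only 1 of the 92 with all 3 factors, and it had them in both conditions. The share of all regions with 3 factors was not counted, so this does not set the 9 genes apart. There IRF8 scored 129.96 in control and 140.80 after IL-4, C/EBPα 34.78 and 35.88, and JUNB 5.46 and 7.07. All 3 scores differed by less than 1.3-fold between the samples, and the JUNB peaks of the 2 conditions lay side by side without overlap.

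Other strong Pparg regions also had peaks in both conditions. An IRF8 peak 53.9 kb upstream scored 85.01 in control and 70.09 after IL-4. Another in the last intron (chr6:115480156-115480680) scored 76.04 and 72.47. In intron 5 of the Pparg2 transcript (chr6:115469310-115469753) the IRF8 score was 30.76 in control and 56.75 after IL-4, which is 1.84-fold higher. An upstream IRF8 peak at 44.1 kb had the highest ratio of the members, with 5.06 in control and 17.73 after IL-4, 3.50-fold. For C/EBPα the highest ratio was in the first intron of Pparg2, 2.7 kb downstream of its start (chr6:115424562-115424930), with 7.48 in control and 19.65 after IL-4, 2.63-fold. These 5 regions were named after their values were seen.

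At 2 Pparg regions C/EBPα and IRF8 peaks appeared or disappeared together. In intron 5 of Pparg2 (chr6:115469902-115470154) C/EBPα scored 2.96 and IRF8 9.43 after IL-4, and neither list had a peak in control. In its last intron (chr6:115480812-115481030) C/EBPα scored 9.11 and IRF8 4.46 in control, with no peak after IL-4. All 4 scores were under 10. The IRF8 score of 9.43 was close to the median of its list, 9.61, and the C/EBPα score of 9.11 was somewhat below its list median of 11.2.

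**Figure D3:**
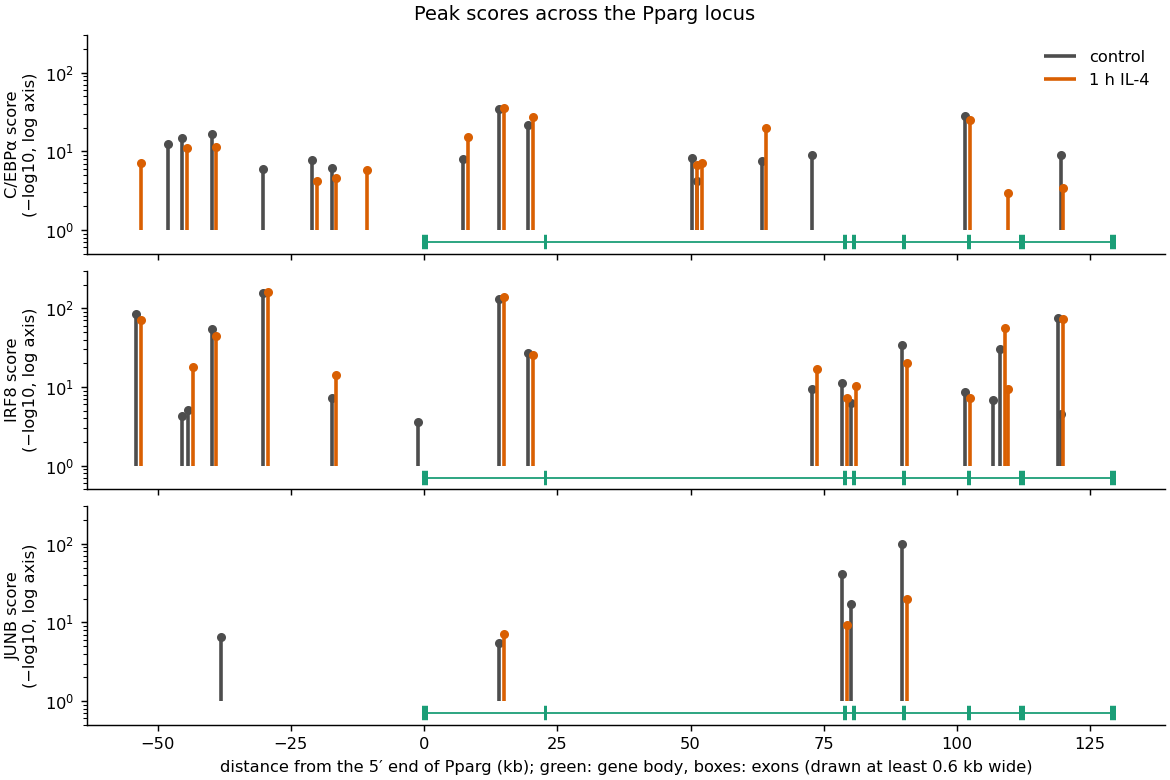
Peak scores (−log10, log axis) of C/EBPα, IRF8 and JUNB against distance from the 5′ end of Pparg in kb, with control in grey and 1 h IL-4 in orange, drawn side by side for each region. The green line is the gene body and the boxes are exons. C/EBPα and IRF8 peaks spread over introns and the upstream region, and the 3 highest JUNB scores stand on exons.

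JUNB showed a different arrangement at Pparg, with its strongest peaks on coding exons. In control the JUNB peak on exon 3 scored 41.64, rank 42 of 3940. On exon 4 it scored 17.27, rank 387, and on exon 5 it scored 98.89, rank 2 of the list. After IL-4 the scores were 9.28 on exon 3 (rank 500 of 2325) and 20.11 on exon 5 (rank 92), and exon 4 had no peak. The control scores were 4.49-fold and 4.92-fold those after IL-4 on exons 3 and 5. The exon 4 region fell outside the rule for regions given in full and was added after its values were seen.

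IRF8 had peaks on the same exons, and C/EBPα did not. On exons 3, 4 and 5 IRF8 scored 11.12, 6.29 and 34.61 in control and 7.30, 10.25 and 19.99 after IL-4. The IRF8 score was thus lower after IL-4 on exons 3 and 5 and higher on exon 4. IRF8 also had peaks over exon 6, with 8.52 and 7.26, where C/EBPα peaks of 28.30 and 25.06 were centred in the intron before it. No list had a peak on exons 1, 2, 7 or 8. Exons 3 to 6 together encode, among others, the DNA-binding domain of the receptor.

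**Figure D4:**
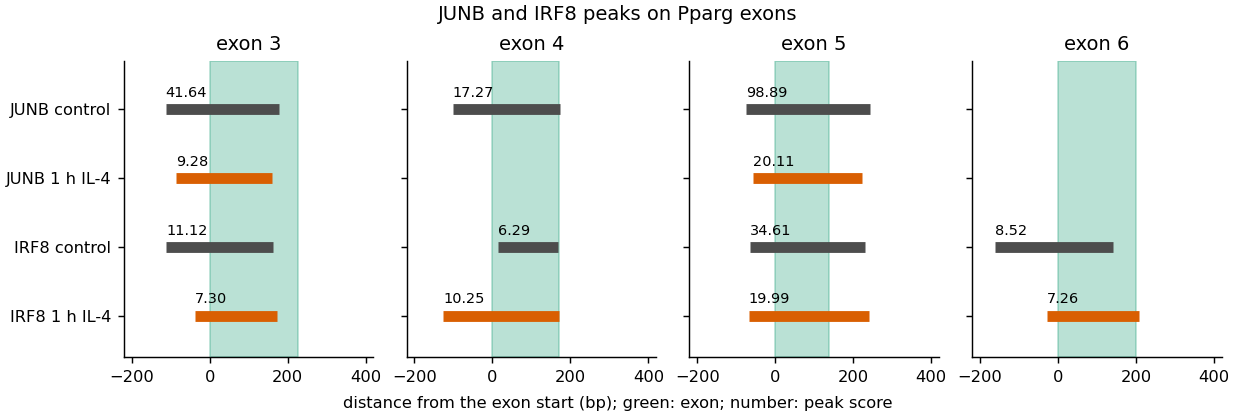
Extent of the JUNB and IRF8 peaks over Pparg exons 3 to 6, as distance in bp from the start of each exon (green, drawn to scale), with the peak score beside each bar. The peaks on exons 3 to 5 cover most or all of the exon and mostly extend beyond it, and JUNB in control has the highest score on each of these 3 exons.

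The JUNB and IRF8 peaks on exons 3 to 5 covered between 70.2 and 100% of the exon. Most of them ran beyond it, and between 43.8 and 100% of a peak lay in the exon. The lowest share was that of the JUNB control peak on exon 5, which was 317 bp wide on an exon of 139 bp. Exons rarely carried peaks in these lists, which held exon peaks as 0.914% of JUNB control peaks and 1.19% of IRF8 control peaks. In the JUNB control list 34 transcripts had an exon peak, and the Pparg transcript was the only 1 with peaks on 3 or more exons. In the IRF8 lists 2 transcripts had that many in each condition, Pparg with Nckap1l in control and Pparg with Stk11ip after IL-4. The exon 3 window held 1 AP-1 match, and the exon 5 window held none. Whether the exon peaks mark binding to the chromosome or fragments of spliced Pparg sequence in the libraries was not tested, since reads were not used here. The JUNB shares, overlaps and score ratio are therefore given with and without them. So are the IRF8 overlap with C/EBPα and the counts of IRF8 score changes.

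PPARδ, encoded by Ppard, is the more widely expressed fatty acid receptor. Ppard (chr17:28232700-28301474) had 3 C/EBPα and 2 IRF8 peaks in each condition and no JUNB peak. Its strongest C/EBPα region, in intron 2 at 14.1 kb (chr17:28246636-28247154), scored 33.57 in control and 38.21 after IL-4, and there an IRF8 peak of 5.72 was present after IL-4 only. In the next region, at 15.0 kb (chr17:28247598-28247947), IRF8 scored 9.82 in control and 22.48 after IL-4, 2.29-fold, and C/EBPα 8.61 and 12.64. Near the start, 778 bp into the gene (chr17:28233363-28233702), an IRF8 peak of 6.81 was present in control only. The 3 C/EBPα pairs of Ppard had higher scores after IL-4, by 1.14-fold to 1.47-fold, and none reached 1.5-fold. Over the whole lists, 9498 of 19111 C/EBPα pairs were higher after IL-4.

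RXRα, encoded by Rxra, and RXRβ, encoded by Rxrb, are partners of the PPARs, LXRs, RAR and VDR. Rxra (chr2:27676440-27762957) had 3 C/EBPα peaks in control and 4 after IL-4, 6 and 5 IRF8 peaks and no JUNB peak. All 11 regions lay inside the gene or at its end. The strongest was an IRF8 peak in intron 2, 63.2 kb from the start (chr2:27740137-27740608), which scored 59.68 in control (rank 3278) and 123.26 after IL-4 (rank 1096). That was 2.07-fold. Some IRF8 pairs with lower scores had higher ratios of IL-4 over control, such as 2.29-fold at Ppard and 3.50-fold upstream of Pparg. The 200 bp window of the Rxra region held none of the motifs searched. The strongest C/EBPα peak, in intron 1 at 37.2 kb, scored 26.50 and 29.91.

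At the last intron of Rxra (chr2:27758328-27758659) the factors were found in opposite conditions. An IRF8 peak of 7.59 was present in control only, and a C/EBPα peak of 4.75 after IL-4 only. Both scores were low. Rxrb had no peak assigned to it in any list, although peaks assigned to other genes lay within 10 kb of it, 1 for IRF8 in control, and 3 for IRF8 and 1 for C/EBPα after IL-4.

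LXRα and LXRβ, encoded by Nr1h3 and Nr1h2, respond to oxysterols and drive cholesterol efflux genes. The Nr1h3 promoter (chr2:91194983-91195368) carried a C/EBPα peak of 30.05 in control and 13.36 after IL-4, 45 bp upstream of the start. The control score was 2.25-fold the IL-4 score, the highest such ratio among the C/EBPα pairs of the members. The region 1.8 kb upstream of that start (chr2:91196610-91197126) was intergenic in the deposited annotation but inside the GENCODE extent of the gene. It had IRF8 peaks of 8.43 and 7.79 and a control-only C/EBPα peak of 6.71. Both C/EBPα peaks of Nr1h3 were therefore weaker or absent in the IL-4 sample. Nr1h2 had 1 region, at its promoter (chr7:44553887-44554307), with IRF8 peaks of 18.63 in control and 23.46 after IL-4 and no C/EBPα or JUNB peak.

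RARα, encoded by Rara, is the main retinoic acid receptor of myeloid cells. Rara (chr11:98927818-98974942) and Vdr were the members at which both C/EBPα and IRF8 had more peaks after IL-4. There were 4 C/EBPα peaks in control against 6 after IL-4, with 4 and 7 for IRF8 and 1 and 1 for JUNB. The strongest was an IRF8 peak in intron 1 (chr11:98941732-98942412), with 97.86 in control and 121.43 after IL-4. C/EBPα had 2 pairs of peaks in that region. The stronger pair scored 14.80 and 8.67, lower after IL-4, and the weaker scored 3.71 and 5.50, higher after IL-4 as for IRF8.

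The JUNB peak 4.2 kb upstream of the nearest Rara start (chr11:98933355-98933683) was intergenic in the deposited annotation and inside the GENCODE extent of the gene. It scored 11.30 in control (rank 1037 of 3940) and 15.21 after IL-4 (rank 175 of 2325). It was the only JUNB pair of the members with a higher score after IL-4, 1.35-fold, and an IRF8 peak of 2.60 was present there after IL-4 only. In intron 2 (chr11:98949642-98949963) a C/EBPα peak of 14.93 and an IRF8 peak of 10.58 were both present after IL-4 only. Of the 92 member regions, 4 had peaks of 2 factors that appeared or disappeared, and this had the highest scores of them. The share of all regions with such a change was not counted. Its window held 1 STAT6-type match and none of the other motifs.

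Rara also had 2 promoter regions. At the upstream promoter (chr11:98937110-98937316) an IRF8 peak of 6.40 was present in control only. At the internal promoter (chr11:98959372-98959944) C/EBPα scored 10.54 and 11.03 and IRF8 4.63 and 8.56, which was 1.85-fold for IRF8. The strongest C/EBPα region, in intron 2 (chr11:98952675-98953076), scored 22.50 in control and 15.54 after IL-4, and an IRF8 peak of 5.41 was present there after IL-4 only.

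VDR, the receptor for active vitamin D, had 5 regions, with a highest score of 14.13. Vdr (chr15:97854425-97910630, minus strand) had no C/EBPα peak in control and 1 after IL-4, and 2 and 4 IRF8 peaks. The C/EBPα peak, 6.0 kb upstream (chr15:97914207-97914400), scored 7.58. The strongest IRF8 region, 19.7 kb upstream (chr15:97927895-97928219), scored 6.85 in control and 14.13 after IL-4, 2.06-fold. Neither of the 2 IRF8 control peaks of Vdr was control-only, against 21.4% of the list. Of its 4 IRF8 IL-4 peaks, 2 were IL-4-only (30.4% of the list), as was its C/EBPα peak (22.0% of the list). These 3 IL-4-only peaks scored 3.97 to 7.58.

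The glucocorticoid receptor, encoded by Nr3c1, mediates the anti-inflammatory action of glucocorticoids. Nr3c1 had 17 C/EBPα peaks in control and 11 after IL-4, 19 and 18 IRF8 peaks, and 1 and 0 JUNB peaks. The assignment by nearest start reached far from the gene here. Of its 33 regions, 16 lay more than 100 kb from its start, and 13 lay in introns of the neighbouring gene Arhgap26. Only 7 were annotated to Nr3c1 itself. Of the 9 genes this was the only 1 with peaks beyond 100 kb.

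The strongest C/EBPα region of the 9 genes was 73.7 kb upstream of Nr3c1 (chr18:39560685-39561181), with 76.05 in control and 86.92 after IL-4. IRF8 there scored 13.35 and 6.04, so IRF8 was lower and C/EBPα was not. At 120.1 kb upstream (chr18:39607169-39607588) C/EBPα scored 42.52 in control and 20.35 after IL-4, and IRF8 10.25 and 4.98. Both control scores were about 2.1 times those after IL-4 (2.09 and 2.06). The strongest IRF8 region, in the last intron of Arhgap26 at 117.6 kb (chr18:39369248-39369946), scored 108.16 and 130.53, with C/EBPα at 18.19 and 9.36. An IRF8 peak 12.6 kb upstream of the RefSeq start (chr18:39499618-39500090) scored 91.50 and 117.62. It lay inside the GENCODE extent of the gene and was named after its values were seen. A JUNB peak of 7.29 in Arhgap26, 167.4 kb away, was present in control only, over IRF8 peaks of 17.55 and 16.46.

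At Nr3c1, C/EBPα had 8 control-only peaks of 17 (21.4% over the list) and 2 IL-4-only peaks of 11 (22.0%). For IRF8 the counts were 5 of 19 (21.4% over the list) and 4 of 18 (30.4%). Nr3c1 supplied 8 of the 13 control-only C/EBPα peaks of the members. With peaks beyond 100 kb left out, 27 of 36 C/EBPα control peaks of the members had an IL-4 peak (75.0%), against 31 of 44 (70.5%) with them.

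Sequence motifs in the member regions were set beside those of all regions. C/EBP matches were found in 39.6% of the 53 member regions with a C/EBPα peak and in 31.4% of all such regions. PU.1-IRF matches were found in 5.97% of the 67 member regions with IRF8 and in 13.1% of all, PU.1 core matches in 22.4% and 25.6%, and ISRE-type matches (GAAA repeated after 2 bases) in 5.97% and 8.82%. An AP-1 match was present in 3 of 7 member regions with JUNB, and in 39.7% of all regions with JUNB. Without the Pparg exons the count was 2 of 4. STAT6-type matches were found in 18.5% of the 92 member regions and 14.5% of all regions.

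Other receptors and cofactors were counted for comparison. Of 25 other nuclear receptor genes, 20 had a region, 73 in all, and Thrb and Esr1 had 10 or more. C/EBPα had 2 control-only and 2 IL-4-only peaks among 28 peaks in each condition (7.14% in both, against 21.4% and 22.0% of the lists). IRF8 had 5 control-only of 49 (10.2%, against 21.4%) and 15 IL-4-only of 58 (25.9%, against 30.4%). JUNB had 4 control-only of 4, where 64.2% of the whole list was control-only. The 7 coregulator genes had 75 regions, with 10 or more at Ncoa1, Ncoa2, Ncoa3 and Nrip1. At those genes C/EBPα had 9 control-only peaks of 26 and 8 IL-4-only of 26, and IRF8 12 of 50 and 8 of 48, and JUNB had 3 control-only of 3 and 1 IL-4-only of 1. The shares of C/EBPα and IRF8 control-only peaks were thus 7.14% and 10.2% at the other receptors, 34.6% and 24.0% at the coregulators, and 29.5% and 25.9% at the lipid-sensing receptors. Of the 44 C/EBPα control peaks at the lipid-sensing receptors, 17 were at Nr3c1, and these gave 8 of the 13 control-only peaks. The differences between the gene lists were not tested, since the lists hold few genes and there is 1 sample in each condition.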

How the data were processed

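ChIP-seq peak lists of 6 samples, 1 for each antibody and condition, were analysed. The submitters' processing notes name BWA 0.7.10, SAMtools 0.1.19, MACS2 2.0.10 and HOMER 4.2 on mm10. Per the methods of the study, alignment with BWA was followed by peak calling with MACS2 and removal of blacklisted regions by the authors. The deposited peak score was taken as −log10 of a q-value or p-value, which its values fit but no source states. It is not normalized between samples and rises with depth, which is unknown. Annotation, gene name and distance to the TSS (in bp) were used as deposited. The control library for peak calling and the library kit of each sample, 1 of 2 named in the labels, are not given in the sources used here.

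Peaks of 2 lists were called shared at an overlap of at least 1 bp. Each shared peak was paired with at most 1 partner, starting from the largest overlap, and a score ratio of 1.5 or more either way was counted. All lists were merged into regions. Shares carry exact (Clopper-Pearson) 95% intervals over peaks. With 1 sample in each group no test was run. A region was given in full when peaks of 2 or more factors appeared or disappeared, when it lay at a promoter or within 1 kb of a start, when it was the strongest of a gene for a factor, or when a shared score of at least 20 in 1 condition differed 2-fold or more. Gene and exon positions came from GENCODE vM21 and RefSeq (GRCm38, the assembly of mm10), and no peak ended past its chromosome. Motifs were searched in 200 bp windows. The PU.1 core was added after sequences had been seen. The members, lists and rules were chosen with earlier results of these data known. Scripts (pandas 2.3.3, numpy 2.4.6 and scipy 1.17.1 under Python 3.11.15) were tested on simulated peaks and against bedtools 2.31.1. A region upstream of Pparg is not reported here.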

Additional observations from a re-analysis of the deposited data

Results flagged for a closer look

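Peaks inside the bodies of 3 receptor genes carried the name of another gene in the deposited annotation and stood outside the comparisons above. The body of Ppard held 12 of them over the 4 C/EBPα and IRF8 lists, assigned to 1810013A23Rik or Fance. The strongest was a C/EBPα peak in intron 2, which scored 49.91 in control (chr17:28283269-28283645) and 71.61 after IL-4 (chr17:28283216-28283631), above the 33.57 and 38.21 of the strongest C/EBPα peak that bore the name Ppard. The body of Nr1h3 held 4, at the promoters of Acp2 and Madd, of which the IRF8 peak at the Madd promoter scored 31.78 in control and 54.65 after IL-4. The body of Vdr held 6, all assigned to Hdac7, with scores of 3.02 to 7.39. Among them were an IRF8 peak of 3.57 found in control only and an IRF8 peak of 3.02 found after IL-4 only. Of the Vdr peaks, 2 were C/EBPα control peaks of 6.49 and 7.39, in introns of a gene for which the deposited names gave no C/EBPα peak in control.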

How the results depend on the processing

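Each of the 15 results was recomputed under the alternatives that apply, which gave 100 values. Of these 89 stayed within the 95% interval of the reported share, or within 15% of the reported median ratio, 10 moved further and 1 turned its sign. The JUNB intervals are wide, such as 0.631 to 80.6% for the IL-4-only share of 4 peaks. A JUNB share that stayed inside them therefore says little about stability. Taking all peaks on a gene body with 10 kb flanks, whatever their gene name, moved the share of C/EBPα control peaks with an IL-4 peak to 85.7% (30 of 35). At a score of 10 or more, 28.6% (6 of 21) of the C/EBPα IL-4 peaks overlapped an IRF8 peak. All other changes concerned JUNB, which had 7 and 4 peaks. The IL-4-only share was 0% when peaks within 200 bp counted as shared, and 0% at a score of 10 or more. The JUNB overlap with C/EBPα was 0% at that score in control and after IL-4, and 0% in control after rank matching. The median JUNB log2 ratio was −0.90 with the 200 bp gap, −0.93 at a score of 10 or more, −1.82 with scores divided by the list median, and 0.43, from 1 pair, without the Pparg exon peaks. Leaving those peaks out was added after seeing the data. With 1 sample in each condition, no replicate could be left out, and depth and IL-4 cannot be told apart.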
